A study of Sus scrofa with 4 samples.

Results

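The nuclear genes for respiratory complex III, cytochrome c, complex IV and the mitochondrial ATP synthase were examined in mature porcine oocytes, one by one. They were taken from the deposited table by their symbols, namely those beginning with ATP5, UQCR or UQCC, those naming a subunit of the COX4 to COX8 series, and CYC1 and CYCS. This gave 29 genes of the 16050 with values, of which 2 encode complex III subunits (UQCRB, UQCR10), 1 encodes a complex III assembly factor (UQCC), 1 encodes cytochrome c (CYCS), 7 encode complex IV subunits and 18 encode the ATP synthase and its inhibitor. The rule reads symbols only, but it was drawn up with earlier results of these data known. Other subunits of these complexes, and the subunits encoded in mitochondrial DNA, were not analysed here. The oocytes came from pig ovaries collected at a slaughterhouse, were matured in vitro for 44 h inside their cumulus cells, and were collected at metaphase II. The Control group received no added Cu, and the Cu group was matured in medium with 25 μg/mL of copper sulfate, as the study's methods give it. Each library was made from 3 pooled oocytes, and 4 libraries were analysed, namely Control 1 and 2 and Cu 1 and 3. The methods give 3 libraries per group, and the remaining libraries were not analysed here one by one. The values carry only the letters C and T, read as Control and Treatment from the library titles, and this reading was not checked independently here. Which group was higher therefore rests on these labels for every gene, and that direction should be read as in doubt. No label ties a library to an animal, so the tests measure the spread between these libraries, which may be partly technical.

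The respiratory chain sits in the inner mitochondrial membrane. Complex III takes electrons from ubiquinol and hands them to cytochrome c, a small soluble carrier, and complex IV, whose catalytic core contains copper, passes them on to oxygen. Both complexes pump protons, and the ATP synthase lets these protons flow back through a membrane ring of c subunits, which turns a shaft inside the catalytic F1 head, while a peripheral stalk holds the head still. Mammalian oocytes depend on this pathway for their ATP during meiosis, and their mRNA is largely a store laid down while the oocyte grew. The values are FPKM, a read density corrected for the length of the transcript and the size of the library, so levels can be compared between genes. In a library of pooled cells a higher FPKM does not tell more transcripts of that gene apart from fewer transcripts of others, nor a change in all cells from a change in some.

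The 14 oocyte markers examined, such as ZP2, GDF9 and BMP15, all had values. Together they made up 34364 and 33659 FPKM in the Controls and 27021 and 27178 FPKM in Cu 1 and 3. This gap was set mainly by BTG4, the most abundant of them. Log2 fold changes were positive for 10 of the 14, ZP2, GDF9 and BMP15 among them, against 64.3% of all tested genes. They were negative for BTG4, ZP4, DAZL and DPPA3. Of 16 cumulus and granulosa cell markers, 10 had values, AMH was listed at 0 in all 4 libraries, and the highest value of any was 5.05 FPKM, for GREM1 in Cu 1. Their summed level was 2.27 and 3.88 FPKM in Control 1 and 2, against 7.66 and 2.87 FPKM in Cu 1 and 3. Cu 1 stood apart from the rest, with 9364 genes at 1 FPKM or more against 7923 to 8162 in the other libraries, and with a correlation (Pearson, log2(FPKM + 1), across 8541 genes, which are not replicates) of 0.918 to 0.923 with each of the others, while Control 1, Control 2 and Cu 3 had 0.959 to 0.976 among themselves. What part this had in the results was not tested. The number of reads per library is unknown, so how precisely low values were measured is unknown as well.

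Transcripts of these complexes were abundant in the oocytes, and most lay higher in the libraries labelled Cu. Their FPKM added up to 6014 and 4718 in Control 1 and 2, against to 14512 and 9584 in Cu 1 and 3, which was 0.920% and 0.766% of all FPKM in the Control libraries and 2.2% and 1.42% in the Cu libraries. Among the 4 libraries the groups did not overlap in this share. By the authors' means, which fit averages of 3 values, the sums were 7624 FPKM for Control and 10450 FPKM for Cu. The Control mean was above both Controls, so the remaining Control library would be higher than either. If the means average 3 libraries, it would also be above Cu 3, and the groups would then overlap. The lack of overlap therefore covers the 4 libraries only. Levels of single genes spanned a wide range. COX7C, a small structural subunit of complex IV, was the highest in every library, with 1076 and 878 FPKM in Control 1 and 2, against 2631 and 1673 FPKM in Cu 1 and 3. ATP5F1D, the δ subunit of the F1 head, was the lowest in every library, with 0.94, 0.43, 2.08 and 0.24 FPKM in the same order. Of the 29 genes, 12 were at 100 FPKM or more in every library, and 5 were under 10 FPKM in both Control libraries (UQCC, COX7A1, ATP5F1D, ATP5PD and ATP5MPL).

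**Figure D1:**
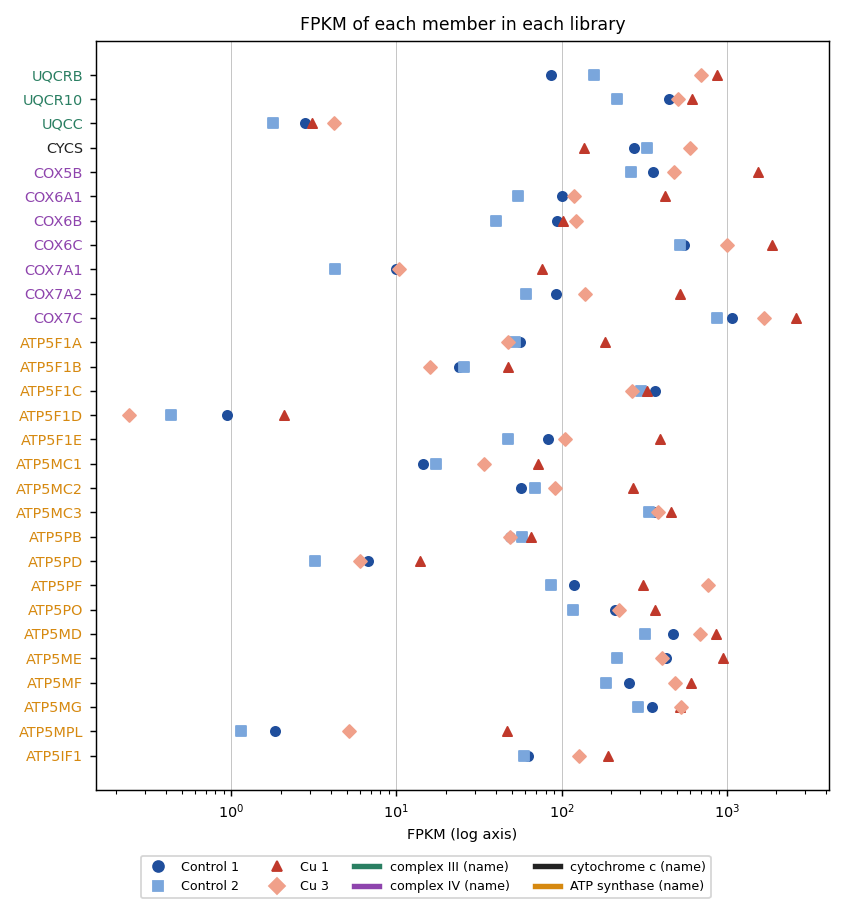
FPKM (log axis) of the 29 genes in each of the 4 libraries, 1 symbol per library, with gene names coloured by complex. The red symbols of the Cu libraries lie to the right of both blue Control symbols in 21 genes, COX7C is the highest gene in every library, and CYCS has 1 Cu library on either side of the Controls.

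The groups were compared with limma on log2(FPKM + 1) over the 8541 genes that reached 1 FPKM in 2 or more libraries. Of the 29 genes, 28 entered the test, all of them at 1 FPKM or more in every library, and ATP5F1D did not. After adjustment, 0 of the 28 were at p of 0.05 or under (Benjamini-Hochberg over all tested genes), as were 0 of all 8541 genes (0%). The adjusted p of the 28 in limma's test ran from 0.631 to 0.986, where 0.631 was also the smallest of any gene. An unadjusted p of 0.05 or less was reached by 15 of the 28, against 7.01% of all tested genes. When a log2 fold change of 1.5 was also required, 7 were higher in the Cu libraries (UQCRB, COX6A1, COX7A2, ATP5F1E, ATP5MC1, ATP5PF and ATP5MPL), against 1.76% of all tested genes, and 0 were lower, against 0.117%. With a limit of 1 in its place, 13 were higher, against 4.39%. The values of both Cu libraries exceeded those of both Controls in 21 of the 28, against 25.4% of all tested genes, and were under them in 0, against 13.4%. An exact two-sided permutation test of 2 libraries against 2 cannot give a p below 0.333 for any single gene. The median log2 fold change of the 28 was 1.06, beside 0.16 for all tested genes, and 26 were above 0, against 64.3% of all tested genes. Scaling the libraries to a common upper quartile moved the median of all tested genes to 0.014 and that of the 28 to 0.89.

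**Figure D2:**
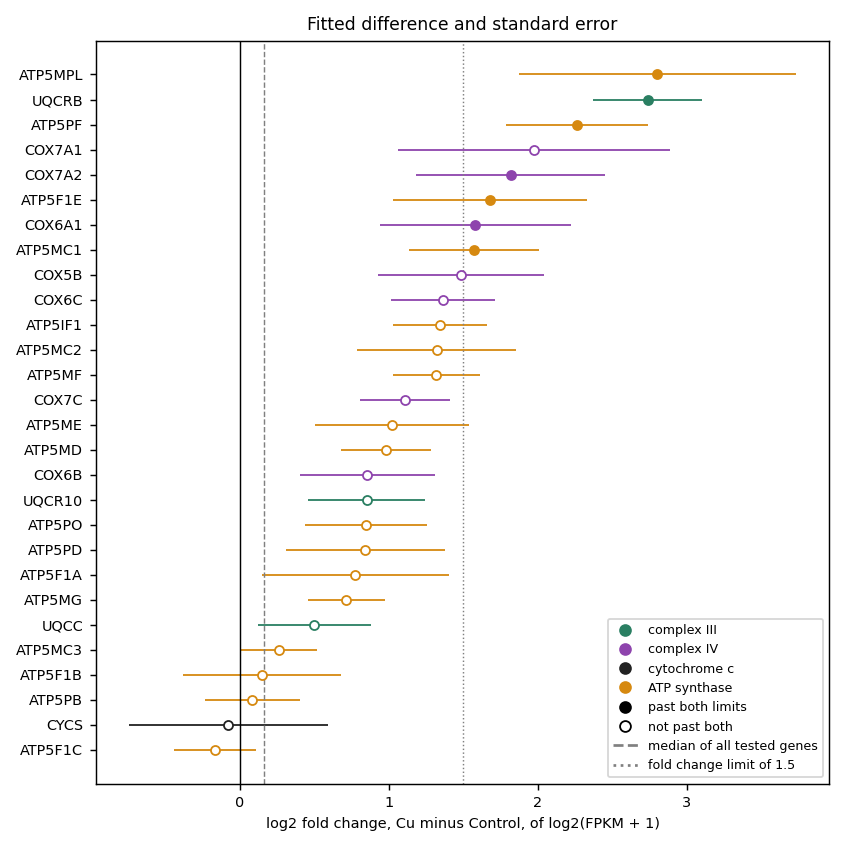
Log2 fold change of log2(FPKM + 1), Cu minus Control, for the 28 tested genes, sorted, with the standard error as bars (2 libraries per group). Filled points are the 7 genes past both an unadjusted p of 0.05 and a fold change of 1.5 (dotted line), the dashed line is the median of all tested genes at 0.16, and 2 genes, CYCS and ATP5F1C, lie below 0.

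In complex III, both subunits and the assembly factor had higher values in both Cu libraries than in either Control library, against 25.4% of all tested genes. Only UQCRB stood well clear. UQCRB (identifier 100157621, chromosome 4, 40403272 to 40409080 of Sscrofa11.1) encodes a small subunit close to the ubiquinone site. Its FPKM was 86.2 in Control 1 and 158 in Control 2, against 878 in Cu 1 and 698 in Cu 3. Among these 4 libraries the lowest Cu value was several times the highest Control value. The authors' means were 234 FPKM for Control and 738 FPKM for Cu. The Control mean was above both Controls, so the remaining Control library would be higher than either and the gap narrower. The log2 fold change was 2.74 ± 0.36 (errors are standard errors of the fit, n = 2 per group), and stayed between 2.31 and 3.17 whichever library was left out. UQCR10, a small subunit of the same complex, had 447 and 217 FPKM in the Controls and 620 and 509 FPKM in the Cu libraries, with a log2 fold change of 0.85 ± 0.39. Its Control libraries were further apart from each other than Control 1 was from Cu 3. UQCC, an assembly factor for the cytochrome b subunit, was weakly expressed at 2.78 and 1.78 FPKM in the Controls and 3.07 and 4.16 FPKM in the Cu libraries (log2 fold change 0.50 ± 0.38). The ratio of UQCRB to UQCR10 within a library, which no scaling of the library can alter, was 0.193 and 0.727 in Control 1 and 2, against 1.41 and 1.37 in Cu 1 and 3. UQCRB thus passed from below UQCR10 in both Controls to above it in both Cu libraries, and from place 13 to place 4 among the 29 genes by group mean. This ratio, like the others given here, was chosen after the values were seen.

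For cytochrome c the Cu libraries lay on opposite sides of the Controls. CYCS (identifier 100170131), whose protein shuttles electrons from complex III to complex IV and also takes part in apoptosis when released into the cytosol, had 275 and 329 FPKM in Control 1 and 2. It had 136 FPKM in Cu 1 and 597 FPKM in Cu 3. Cu 1 was thus the lowest and Cu 3 the highest of the 4 libraries, and it was the only one of the 28 tested genes with Cu 1 below both Controls, against 25.4% of all tested genes. The log2 fold change was -0.077 ± 0.67. CYCS is known for many processed copies in mammalian genomes, and the sources do not say how reads shared with such copies were assigned.

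Complex IV was uniform in direction in the 4 libraries. In all 7 subunits both Cu libraries exceeded both Controls, against 25.4% of all tested genes. Their median log2 fold change was 1.49, from 0.85 for COX6B to 1.97 for COX7A1. All 7 were higher in Cu by the authors' means too, with a median log2 ratio of 0.99. The summed Control mean, 3189 FPKM, was above both Controls, at 2278 and 1823 FPKM. If it averages 3 libraries, the remaining Control library would sum to more than Cu 3, at 3545 FPKM. By gene, that library would be above Cu 3 for COX5B, COX6A1, COX6C, COX7A2 and COX7C. For these genes the separation therefore covers the 4 libraries only. Past both limits were 2 of the 7, COX6A1 and COX7A2, against 1.76% of all tested genes. COX7A2 (identifier 100038000, chromosome 1, 90696746 to 90703407), the isoform of subunit VIIa found in most tissues, had 92.3 and 61.1 FPKM in Control 1 and 2, against 518 and 138 FPKM in Cu 1 and 3, with a fitted log2 change of 1.82 ± 0.63, or 0.87 without Cu 1. Its sister gene COX7A1 (identifier 399685), the isoform typical of heart and skeletal muscle, was far lower, at 9.90 and 4.22 FPKM in the Controls and 75.8 and 10.4 FPKM in the Cu libraries. COX7A1 had the largest fold change of the complex, 1.97 ± 0.91, yet did not pass the limit on p, and without Cu 1 its value was 0.60. Cu 3 was only slightly above Control 1. Of the summed FPKM of both isoforms, COX7A1 took 9.69% and 6.46% in the Controls and 12.8% and 7.03% in the Cu libraries, and these shares overlapped between the groups.

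COX6A1 (identifier 100152232, chromosome 14, 40408600 to 40410810), the widely expressed isoform of subunit VIa, had 101 and 54.1 FPKM in Control 1 and 2, against 422 and 118 FPKM in Cu 1 and 3 (log2 fold change 1.58 ± 0.64). COX5B, a zinc-binding subunit on the matrix side, had 356 and 264 FPKM in the Controls and 1540 and 480 FPKM in the Cu libraries (1.49 ± 0.56), just under the limit on fold change. In both genes Cu 1 was more than 3 times Cu 3, and Cu 3 was nearer to Control 1 than to Cu 1. Without Cu 1, the log2 fold change was 0.67 for COX6A1 and 0.65 for COX5B. Over the 4 libraries the 2 most abundant subunits had smaller differences with smaller errors. COX6C had 549 and 521 FPKM in the Controls and 1888 and 1004 FPKM in the Cu libraries (1.36 ± 0.35), and the log2 fold change of COX7C was 1.11 ± 0.30. Their ratio was much alike in the libraries, with 1.96 and 1.68 COX7C per COX6C in Control 1 and 2, against 1.39 and 1.67 in Cu 1 and 3. COX6B, a subunit facing the intermembrane space, had 93.9 and 39.9 FPKM in the Controls and 102 and 123 FPKM in the Cu libraries (0.85 ± 0.45), so that Control 1 and Cu 1 nearly met. Control 1 was above Control 2 in all 7 genes of complex IV, where this was so for 42.7% of all tested genes.

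The ATP synthase was less even. Of its 17 tested genes, 11 had each Cu library higher than each Control, against 25.4% of all tested genes. In 0 each was lower, against 13.4%, and 6 overlapped. The median log2 fold change was 0.98, and 4 genes were past both limits, against 1.76% of all tested genes. The genes are given by their place in the enzyme, and differences between places were not tested. In the F1 head, where ATP is made, 1 of 4 tested subunits was separated upward, near the 25.4% of all tested genes. In 3 of the 4 subunits Cu 3 was below both Controls, against 37.1% of all tested genes. ATP5F1A, the α subunit, had 56.3 and 52.4 FPKM in Control 1 and 2, 184 FPKM in Cu 1 and 47.3 FPKM in Cu 3 (0.77 ± 0.63). ATP5F1B, the catalytic β subunit, had 24.0 and 25.6 FPKM in the Controls, 47.1 FPKM in Cu 1 and 16.1 FPKM in Cu 3 (0.15 ± 0.53). In both, the Controls lay close together and the Cu libraries fell on opposite sides of them.

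ATP5F1C, the γ subunit that forms the turning shaft, was the most abundant gene of the head in every library but Cu 1, where ATP5F1E was higher, at 368 and 302 FPKM in the Controls and 329 and 268 FPKM in the Cu libraries. Its log2 fold change, -0.16 ± 0.27, was the lowest of the 28, and its place among the 29 genes by group mean went from 5 in Control to 14 in Cu. ATP5F1E (identifier 100134963, chromosome 17, 59163085 to 59174488), the small ε subunit at the foot of the shaft, differed from the rest of the head, with 83.2 and 47.4 FPKM in the Controls and 393 and 105 FPKM in the Cu libraries (1.68 ± 0.65, or 0.73 without Cu 1). ATP5F1D, its neighbour in the shaft, was too low to be tested, with Cu 1 the highest and Cu 3 the lowest of the 4 libraries.

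The c subunit is made from 3 genes that encode the same mature protein behind different mitochondrial targeting sequences. All 3 had both Cu libraries above both Controls, against 25.4% of all tested genes, but by unequal amounts. The authors' Control means were above both Controls, at 458 FPKM for ATP5MC3 and 24.8 FPKM for ATP5MC1. By them the remaining Control library would be above both Cu libraries for ATP5MC3 and above Cu 3 for ATP5MC1. For these genes the separation covers the 4 libraries only. ATP5MC3 supplied most of the transcripts, with 363 and 339 FPKM in Control 1 and 2, against 461 and 384 FPKM in Cu 1 and 3 (log2 fold change 0.26 ± 0.26). ATP5MC2 had 56.4 and 69.4 FPKM in the Controls and 272 and 91.4 FPKM in the Cu libraries (1.32 ± 0.53). ATP5MC1 (identifier 574054, chromosome 12, 25110540 to 25113481) was the lowest of the 3 in every library, at 14.5 and 17.4 FPKM in the Controls and 71.5 and 33.8 FPKM in the Cu libraries (1.57 ± 0.44, or 1.04 without Cu 1), and was past both limits. The makeup of the c subunit transcripts therefore moved away from ATP5MC3, whose share of the summed FPKM of the 3 genes was 83.7% and 79.6% in Control 1 and 2, against 57.3% and 75.4% in Cu 1 and 3. The share of ATP5MC1 was 3.34% and 4.10% in the Controls and 8.89% and 6.63% in the Cu libraries. Neither share overlapped between the groups, although for ATP5MC3 the gap between Cu 1 and Cu 3 was larger than that between Cu 3 and the Controls. Reads from the shared coding part could have been divided among these genes by the counting.

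**Figure D3:**
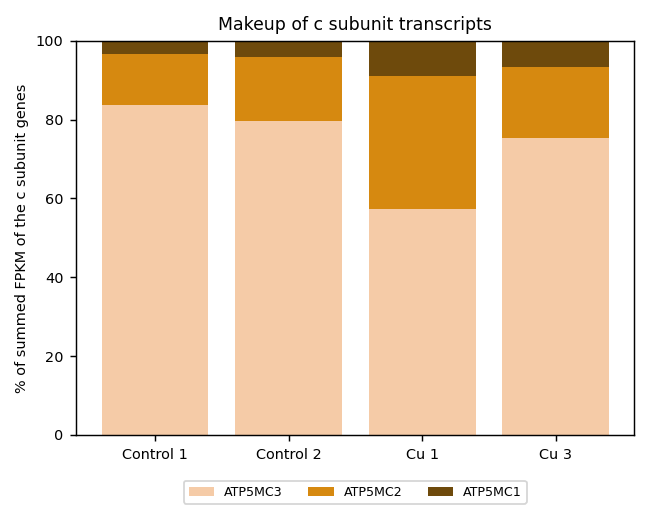
Share of each c subunit gene in the summed FPKM of ATP5MC1, ATP5MC2 and ATP5MC3, as stacked bars from 0 to 100%, 1 bar per library. ATP5MC3 makes up 83.7% and 79.6% in the Control bars, 57.3% in Cu 1 and 75.4% in Cu 3.

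In the peripheral stalk, which keeps the head from turning with the shaft, ATP5PF stood out. ATP5PF (identifier 100622245, chromosome 13, 189281429 to 189290234), known as coupling factor 6, had 119 and 86.0 FPKM in Control 1 and 2, 309 FPKM in Cu 1 and 771 FPKM in Cu 3. It was 1 of 5 genes with Cu 3 above Cu 1, beside UQCC, CYCS, COX6B and ATP5MG. Cu 1 was above Cu 3 in the other 23 of the 28, against 65.7% of all tested genes. Its log2 fold change was 2.26 ± 0.48, with the direction resting on the labels as for every gene. ATP5PB, the b subunit that forms the length of the stalk, had 48.8 and 57.4 FPKM in the Controls and 64.9 and 48.7 FPKM in the Cu libraries (0.085 ± 0.32), and the groups overlapped. There were 2.44 and 1.5 ATP5PF per ATP5PB in Control 1 and 2, 4.77 in Cu 1 and 15.8 in Cu 3. ATP5PO, also called OSCP, which ties the stalk to the top of the head, was separated narrowly, with 211 and 118 FPKM in the Controls and 367 and 221 FPKM in the Cu libraries (0.85 ± 0.41). ATP5PD, the d subunit, was low and overlapped, with 6.69 and 3.22 FPKM in the Controls and 14.0 and 5.98 FPKM in the Cu libraries (0.84 ± 0.53). Because of ATP5PF, the stalk made up 24.8% of the ATP synthase FPKM in Cu 3, against 13.2% and 12.1% in Control 1 and 2, against 13.3% in Cu 1.

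The small membrane subunits, several of which help to join ATP synthase monomers into dimers, were the largest group by level, with 46.3% to 52.5% of the ATP synthase FPKM in the 4 libraries. Both Cu libraries were above both Controls in 4 of the 5, against 25.4% of all tested genes. ATP5MPL (identifier 100523804) had the largest fold change of all 28 genes, but from a very low level, with 1.83 and 1.15 FPKM in Control 1 and 2, 47.0 FPKM in Cu 1 and 5.16 FPKM in Cu 3 (log2 fold change 2.80 ± 0.93). Its value without Cu 1 was 1.32. Over the 4 libraries the abundant members had smaller differences with smaller errors. ATP5MF had 255 and 186 FPKM in the Controls and 608 and 489 FPKM in the Cu libraries (1.32 ± 0.29). ATP5MD, also known as DAPIT, had 472 and 321 FPKM in the Controls and 866 and 686 FPKM in the Cu libraries (0.98 ± 0.30). ATP5MG, the g subunit, had 351 and 289 FPKM in the Controls and nearly equal values of 521 and 527 FPKM in the Cu libraries (0.72 ± 0.26). In these 3 genes Cu 1 and Cu 3 lay within a factor of 1.5 of each other. By the authors' means the log2 ratios of ATP5MF, ATP5MD and ATP5MG were 0.51, -0.047 and 0.15. Their Control means, 313, 669 and 433 FPKM, were each above both Controls, so the remaining Control library would be higher than either. Their Cu means, 447, 647 and 479 FPKM, were each below both Cu 1 and Cu 3. The remaining Cu library would thus be lower than either, and for ATP5MF and ATP5MD lower than Control 1 too. ATP5ME, the e subunit, was the one that overlapped, since Control 1 at 430 FPKM was above Cu 3 at 403 FPKM, with 216 FPKM in Control 2 and 951 FPKM in Cu 1 (1.02 ± 0.52).

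ATP5IF1, the inhibitor that blocks the enzyme from running backwards and consuming ATP, had 62.6 and 59.2 FPKM in Control 1 and 2, against 190 and 128 FPKM in Cu 1 and 3, with a fitted log2 change of 1.34 ± 0.32. Its Control libraries were nearly equal and both Cu libraries were more than 2 times as high as either. Set against the catalytic subunit in the same library, there were 2.61 and 2.32 ATP5IF1 per ATP5F1B in the Controls and 4.03 and 7.99 in the Cu libraries. Against ATP5F1A the ratio was 1.11 and 1.13 in the Controls, 1.03 in Cu 1 and 2.71 in Cu 3, so this ratio overlapped between the groups.

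The Cu libraries differed from the Controls to unequal degrees. Taken one at a time against the mean of the Controls, the median difference of the 28 genes on the log2(FPKM + 1) scale was 1.54 in Cu 1 and 0.72 in Cu 3, beside 0.31 and 0.0023 for all tested genes. Cu 1 lay above both Controls in 26 of the 28, the exceptions being CYCS and ATP5F1C, against 58.1% of all tested genes. Cu 3 lay above both in 22, against 37.4% of all tested genes, and below both in 4 (ATP5F1A, ATP5F1B, ATP5F1C and ATP5PB), against 37.1%. The median absolute difference between Cu 1 and Cu 3 was 0.99, and that between the Controls was 0.44, beside 0.56 and 0.27 for all tested genes, so the Cu pair was spread more widely in both. By complex, the median difference in Cu 1 and in Cu 3 was 2.33 and 0.78 for complex IV and 1.48 and 0.54 for the ATP synthase. Without Cu 1, the genes past both limits were 2, UQCRB and ATP5PF, against 1.19% of all tested genes. Without Cu 3 they were 14, against 8.68%, and without Control 2 they were 3, against 1.86%. UQCRB and ATP5PF were past both limits in every alternative fit, which none of the other genes was.

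**Figure D4:**
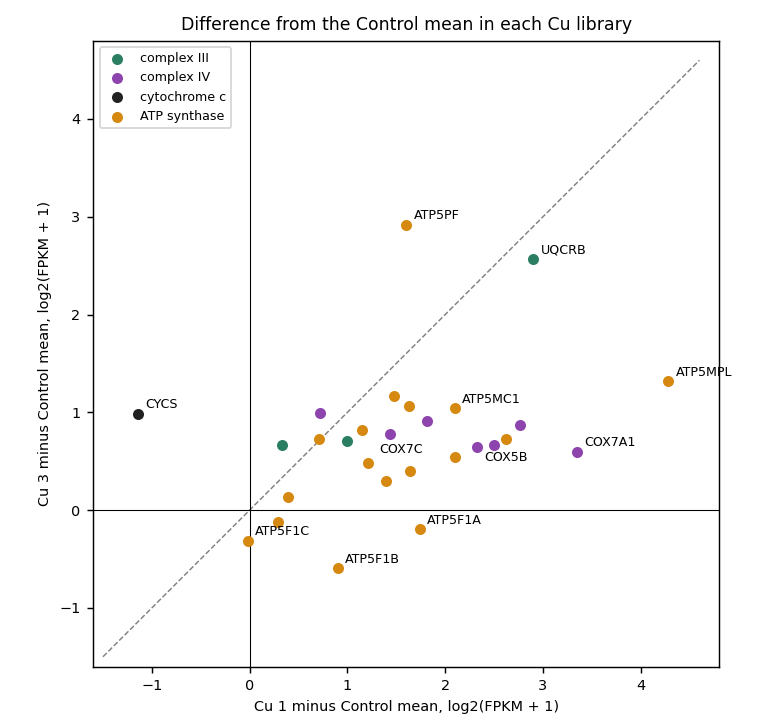
Difference from the mean of both Control libraries on the log2(FPKM + 1) scale, Cu 1 on the horizontal and Cu 3 on the vertical axis, 1 point per tested gene, coloured by complex. Most points lie below the dashed line of equal difference, with medians of 1.54 for Cu 1 and 0.72 for Cu 3, while ATP5PF and CYCS lie well above it and UQCRB lies close to it.

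The authors' group means of FPKM are in the table too, and their decimals fit averages of 3 values. Separation of the groups was counted over the 4 libraries only, not over the libraries behind these means. By these means 22 of the 28 tested genes were higher in Cu, against 62% of all tested genes, and the median log2 ratio was 0.62, beside 0.11 for all tested genes. CYCS, ATP5F1B, ATP5F1C, ATP5MC3, ATP5PB and ATP5MD were lower in Cu by the means. For ATP5MC3 and ATP5MD this went against both Cu libraries being above both Controls in the 4 libraries. COX6C is an example of a gene whose difference became small, with authors' means of 1105 FPKM for Control and 1251 FPKM for Cu, a log2 ratio of 0.18 in place of 1.36. UQCR10, ATP5ME and ATP5MG had log2 ratios of 0.19, 0.15 and 0.15. The ratio remained large for ATP5MPL at 2.99, ATP5PF at 2.01, COX7A1 at 1.93 and UQCRB at 1.66. The share of ATP5MC3 among the c subunit transcripts was 82.7% by the authors' mean of Control and 63.7% by that of Cu.

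**Figure D5:**
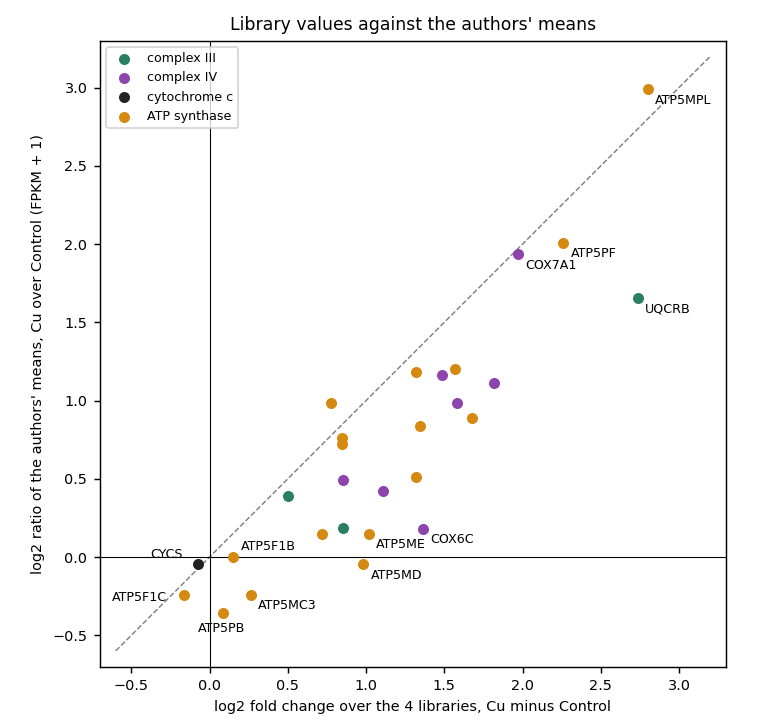
Log2 fold change over the 4 libraries (horizontal) against the log2 ratio of the authors' mean FPKM with 1 added (vertical), both Cu relative to Control, 1 point per tested gene. Most points lie below the dashed line of equality, 6 genes lie below 0 on the vertical axis, and ATP5MPL, ATP5PF, COX7A1 and UQCRB remain above 1.5 on it.

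The other nuclear genes of the pathway were counted by the same limits. Of 37 complex I subunits, 32 were tested, 8 were past both limits upward and 0 downward, against 1.76% and 0.117% of all tested genes, and their median log2 fold change was 1.14. The 6 of these with the smallest p were NDUFS4, NDUFAB1, NDUFB3, NDUFS5, NDUFA11 and NDUFB9. NDUFS4, with a log2 fold change of 1.55, had the smallest of these changes, and NDUFB3, with 3.86, was exceeded by NDUFAB1, which went from 5.46 and 5.59 FPKM in the Controls to 312 and 33.9 FPKM in the Cu libraries. Complex II, which also belongs to the citric acid cycle, had 4 tested genes, 0 of them past the limits in either direction, and a median of 0.17. Of the tested assembly factors, 0 of 2 for complex III, 1 of 6 for complex IV and 0 of 4 for the ATP synthase were past both limits upward, and 0 downward. The one for complex IV was PET100, a small assembly factor, with 2.36 and 2.06 FPKM in Control 1 and 2, against 31.6 and 5.02 FPKM in Cu 1 and 3 (log2 fold change 2.13 ± 0.79). Of the 6 for complex IV, 4 had both Cu libraries above both Controls, against 25.4% of all tested genes. These were PET100, CMC1, CMC2 and TACO1, all with positive log2 fold changes. LRPPRC and COX10, both needed to build complex IV, had log2 fold changes of -0.097 and -0.043.

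Among genes that bring copper to complex IV, 2 were tested and 1 was past both limits upward, against 1.76% of all tested genes. COX17, the chaperone that hands copper to the assembly machinery of complex IV in the intermembrane space, had 65.5 and 112 FPKM in Control 1 and 2, against 742 and 259 FPKM in Cu 1 and 3 (log2 fold change 2.34 ± 0.55). Among these 4 libraries the lowest Cu value was above 2 times the highest Control value. The authors' means were closer together, at 180 FPKM for Control and 431 FPKM for Cu. The Control mean was above both Controls. If it averages 3 libraries, the remaining Control library would be higher than either and also above Cu 3. The gap therefore holds for the 4 libraries only. SLC25A3, which carries phosphate and copper into the matrix, had 12.04 and 19.7 FPKM in the Controls and 19.5 and 48.8 FPKM in the Cu libraries (0.96 ± 0.52), with Control 2 and Cu 1 at nearly the same level. SCO2 was under 1 FPKM in every library and was not tested.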

How the data were processed

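The libraries were made by Smart-seq2, which copies polyadenylated RNA from oligo dT. The authors deposited an FPKM value for each library, rounded to 2 decimals, and a group mean. The study's methods name SOAPnuke, HISAT2, Bowtie2 and RSEM, whereas the submitters' processing notes list TopHat2 2.0.13, Cufflinks 2.2.1, Cuffnorm and Cuffdiff and the build Sscrofa11.1. Which of these made the FPKM was not settled. Read numbers per library are unknown, and FPKM are not counts, so the test for normalized values planned beside a count test was used. Positions are from RefSeq on Sscrofa11.1, where all 29 genes were found by identifier. It has an older symbol for 18 of them, and ATP5MPL lies on a sequence not assigned to a chromosome. From the FPKM, log2(FPKM + 1) was fitted with limma 3.58.1 in R 4.3.3 (lmFit, eBayes with a variance trend) over the 8541 genes that reached 1 FPKM in 2 or more of the 4 libraries, with Benjamini-Hochberg adjustment over all of them, and the function was tested on simulated data. The limits were an adjusted p of 0.05 or, without adjustment, p of 0.05 if the log2 fold change reached 1.5. Every gene chosen by symbol was accounted for, with values in every library for those past the limits, the complex III and IV subunits and the ATP synthase genes, and the pathway genes past the limits, at most 6 per list. The members and lists were chosen with earlier results of these data known. COX10, LRPPRC, CMC1, CMC2, TACO1, SLC25A3, SCO2 and the markers were named outside that rule, after their values were seen. Alternatives were the pseudocount, the filter, the variance trend, 4 scalings, a fold change limit of 1 and leaving out each library, and the authors' means were added after seeing the data.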

Additional observations from a re-analysis of the deposited data

How the results depend on the processing

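No paired analysis was possible because the groups share only 1 replicate number. The fits were repeated with a pseudocount of 0.1, no filter or 1 FPKM in every library, no variance trend, 4 scalings, a fold change limit of 1 and each library left out. A DESeq2 fit, planned for counts only, was not run. The 7 genes past both limits became 3 without the filter (0.726% of all tested genes), 4 under upper-quartile (1.23%) or median-of-ratios scaling (1.29%), 13 at a fold change limit of 1, and 2 to 14 with a library left out. In limma's test 0 to 21 of the 28 passed an adjusted p of 0.05 with a library left out. The 3 without Cu 1 were UQCRB, ATP5PF and ATP5MF, against 2.18% of all tested genes, and the 21 without Cu 3 stood against 20.5%. There the lone Cu library was assumed to vary like the Controls. Both Cu libraries lay below both Controls in 1 gene under upper-quartile and median-of-ratios scaling, beside 1714 and 1689 of the 8541 tested genes. They lay above both in 18 under each, beside 1630 and 1644. With a library left out, the remaining Cu values were below the remaining Control values in 0 to 4. The 4 were for Cu 3 alone, against 37.1% of all tested genes. The most above was 26, for Cu 1 alone, against 58.1%. For complex I, the 8 past the limits became 5 under upper-quartile scaling, 14 at a fold change limit of 1, and 2 to 15 with a library left out. Of all tested genes, 1.23% were past both limits upward under upper-quartile scaling and 4.39% at a fold change limit of 1. For complex I the 2 arose without Cu 1 and the 15 without Cu 3. The share of all tested genes was far larger without Cu 3 than without Cu 1, as given above. The same shares apply to the lists that follow. For complex II the 0 became 1 at a limit of 1. For complex III assembly it was 0 to 1 with a library left out. The 1 for complex IV assembly became 0 without the filter and 0 to 2 with a library left out. The 1 for copper delivery ranged from 1 to 2 with a library left out. The median log2 fold change of complex III (0.85) was 0.33 to 1.37 with a library left out and 0.39 by the authors' means. The median of the 28 stayed between 0.62 and 1.54. The direction turned for 6 genes. ATP5F1B had a log2 fold change of -0.023 under upper-quartile and -0.022 under median-of-ratios scaling, -0.0012 by the authors' means and -0.60 to 0.90 with a library left out. ATP5PB had -0.024 under quantile normalization, -0.091 and -0.090 under those scalings, -0.36 by the authors' means and -0.12 to 0.29 with a library left out. CYCS had -1.14 to 0.99 and ATP5F1A -0.19 to 1.74 with a library left out. By the authors' means ATP5MC3 had -0.24 and ATP5MD -0.047. The causes were not tested. With 2 libraries per group and unknown depth, differences of low genes are the least certain.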
